A study of Mus musculus with 6 samples.

Results

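The 36 genes described here encode the calcium handling machinery and the ion channels of the cardiomyocyte, and they were chosen by gene name and role. No threshold on a measured value entered the choice, but earlier results of these data were known when it was made. They comprise 5 genes of sarcoplasmic reticulum (SR) calcium release (*Ryr2*, *Itpr1*, *Itpr2*, *Fkbp1b*, *Asph*), 5 genes of SR calcium storage and its couplers (*Casq1*, *Casq2*, *Hrc*, *Srl*, *Trdn*), 2 junctophilins (*Jph1*, *Jph2*), 3 genes of SR uptake (*Atp2a2*, *Pln*, *Sln*), the exchanger *Slc8a1* and the kinase *Camk2d*, 7 voltage-gated calcium channel subunits, 2 pacemaker channels, 7 potassium channel subunits and 3 connexins. All 36 were found among the 54532 genes of the deposited table. In the fit to all genes, 35 of them passed the filter on low counts and were tested among 19372 genes, and *Sln* did not pass.

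RNA was sequenced from whole hearts of mouse embryos at embryonic day 9.5 (E9.5), with each library made from the heart of a separate embryo. Hearts of 3 embryos homozygous for a mutated allele of *Smyd1*, a muscle-restricted histone methyltransferase (*Smyd1-KO*), were compared with hearts of 3 wild-type embryos (WT), and the comparison asks which transcripts differ when *Smyd1* is lost just before the mutant embryos die. The allele is carried in every tissue of the embryo and the labels give no treatment for either group. Libraries held 48627825 to 64217529 assigned reads. Values are counts per 1000000 assigned reads (CPM), with library totals scaled by TMM and hearts always given in the order 1, 2, 3, and a gene was called when its Benjamini-Hochberg adjusted *P* in edgeR's quasi-likelihood test was under 0.05 and its absolute log2 fold change was at least 0.5.

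A heartbeat begins when membrane channels depolarise the cardiomyocyte and voltage-gated calcium channels open, and the calcium that enters triggers a larger release from the SR through ryanodine receptors. Calcium is then pumped back into the SR by SERCA2 and extruded by the sodium/calcium exchanger, while potassium channels repolarise the membrane and connexins pass the impulse to the next cell. The heart tube already beats at E9.5, when the SR is immature and calcium entry and exchange across the membrane carry much of the cycle.

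The targeted gene was checked first. *Smyd1* read 101, 222 and 206 CPM for *Smyd1-KO* hearts 1, 2 and 3, against 414, 379 and 270 for WT hearts 1, 2 and 3. The groups did not overlap, and reads remained in every *Smyd1-KO* heart. The log2 fold change was -1.01 (95% interval -1.71 to -0.30, adjusted *P* = 0.0973 by edgeR), and an exact two-sided permutation test over the 6 hearts gave *P* = 0.1, the smallest that 3 against 3 allows. Which part of the transcript the mutated allele removes is not given in the sources used here, so a sum over the whole gene is a weak check of the labels.

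The 6 hearts did not carry equal amounts of cardiomyocyte transcript. Over 12 cardiomyocyte markers (*Tnnt2*, *Myh6*, *Actc1* and others), the median difference from the WT mean on the log2 scale was -0.96, 0.10 and 0.12 in *Smyd1-KO* hearts 1, 2 and 3 and 0.30, 0.09 and -0.50 in WT hearts 1, 2 and 3. *Smyd1-KO* heart 1 and WT heart 3 thus sat lowest in their groups, and the summed level of the 12 markers overlapped between genotypes (9422 to 19550 CPM in *Smyd1-KO*, 12750 to 21190 CPM in WT, 0 of 12 called, 0 at zero). The same hearts were lowest in their groups over the 35 tested members, with medians of -0.54, 0.32 and 0.33 in *Smyd1-KO* and 0.10, 0.13 and -0.30 in WT, while the order of the other 4 hearts was not that of the markers. *Smyd1-KO* heart 1 was the lowest of the 6 hearts for 21 of the 35 members (60.0%), against 20.6% of all tested genes, and WT heart 3 was the lowest WT heart for 27 of 35 (77.1%), against 34.8%. In these bulk samples fewer cells of a type and less RNA per cell cannot be told apart. Each called member is therefore also given from a fit that carries the mean level of the 12 markers in each heart as a covariate, a setting chosen after the data had been seen, and from a fit without *Smyd1-KO* heart 1. Of the 12 markers in this covariate, *Myh6* was lower in every *Smyd1-KO* heart than in any WT heart (log2 fold change -0.71, adjusted *P* = 0.172 by edgeR). The other 11 overlapped, with *Myh7* at 0.62 (adjusted *P* = 0.306 by edgeR).

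**Figure D1:**
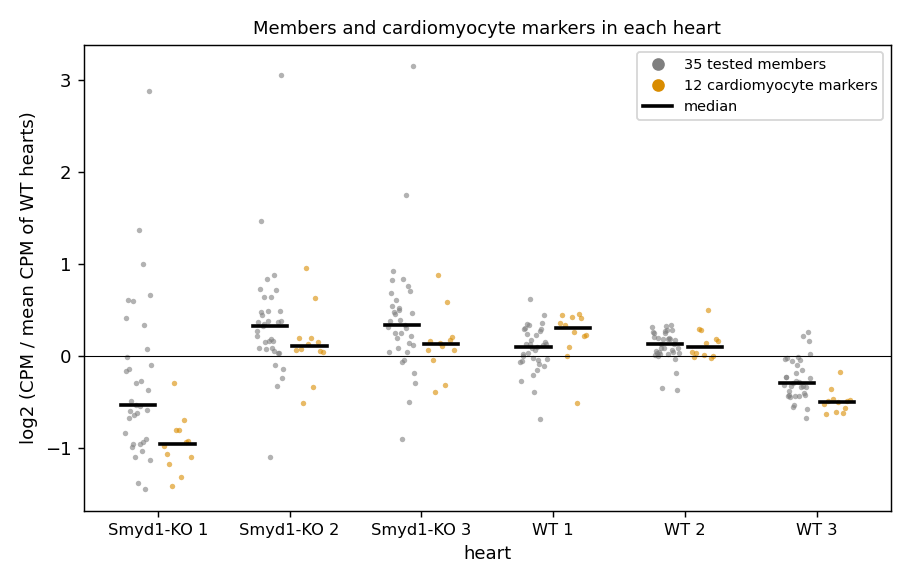
Difference of each gene from its WT mean on the log2 scale (y axis) in the 6 hearts (x axis), for the tested members beside the 12 cardiomyocyte markers. *Smyd1-KO* heart 1 and WT heart 3 lie low in both sets of genes, with member medians of -0.54 and -0.30.

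Other markers also differed between the hearts. Transcripts of 7 erythroid markers summed to 21.5 to 246 CPM in *Smyd1-KO* and 667 to 882 CPM in WT, with all 7 lower in each *Smyd1-KO* heart than in any WT heart and 3 of 7 called. Summed trabecular markers were higher in *Smyd1-KO* (496 to 893 CPM against 229 to 476 CPM), with 0 of 5 called. Taken singly, all 5 overlapped between genotypes. *Irx3* was at 176 CPM in *Smyd1-KO* heart 1, against 52.3 to 109 in the other hearts. That heart had the lowest *Smyd1-KO* sum, so the gap between the sums depended on *Irx3*. Summed atrial (1255 to 2450 against 1382 to 2374 CPM), ventricular (435 to 863 against 437 to 774 CPM), and smooth muscle and mesenchyme markers (1579 to 4297 against 1681 to 2966 CPM) overlapped with 0 called, as did skeletal muscle markers (29.1 to 36.6 against 21.1 to 32.4 CPM), of which *Myod1*, *Myog* and *Myh3* fell below the filter. *Myog* nevertheless had 127 reads in *Smyd1-KO* heart 1, against 0 to 3 in each other heart. *Myf5*, which was tested, had 106 reads in that heart and 2 to 40 in the others. Endothelial markers (607 to 949 against 559 to 663 CPM) had 1 of 8 called, and epicardial markers (137 to 255 against 99.98 to 124 CPM) and sinus venosus and pacemaker markers (124 to 190 against 176 to 219 CPM) had 0 of 5 each. Within the mesenchymal list *Smyd1-KO* heart 3 stood apart, with *Col1a1* at 1431 CPM against 86.4 to 237 in the other hearts and *Postn* at 618 CPM against 7.04 to 150. Neuronal markers had 0 of 5 called and summed to 15.6 to 92.9 against 19.7 to 29.3 CPM, with the top value in *Smyd1-KO* heart 1, where *Sox2* alone was at 81.3 CPM against 13.5 to 24.2 in WT. Myeloid markers were low (2.72 to 3.89 against 3.73 to 4.94 CPM) with 0 called, and *Ptprc* was below the filter. The part of these cell types in the results on the members was not tested.

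Levels of the members were compared with one another as CPM per kilobase of merged exons, a rough measure that is too low for genes with long, little-used exons. In WT hearts *Atp2a2*, which encodes the SR calcium pump SERCA2, stood first at 289 CPM per kilobase. *Jph2*, a junctophilin that ties the SR to the surface membrane, followed at 72.2, and *Casq1*, known as the skeletal muscle form of the SR calcium buffer calsequestrin, had rank 3 at 67.4. The cardiac form *Casq2* was at 0.700 CPM per kilobase, 31st of the 36 members. Among the channels, *Cacna2d2*, an auxiliary calcium channel subunit, was at 33.4 CPM per kilobase. The repolarising potassium channel gene *Kcnh2* was at 33.3, and *Hcn4*, the principal pacemaker channel of the heart, was at 28.0. The pore-forming L-type subunits *Cacna1c* and *Cacna1d* were close to each other in WT hearts, at 4.20 and 3.38 CPM per kilobase. *Pln*, the inhibitor of SERCA2, was at 1.75 CPM per kilobase, and the other inhibitor of the pump, *Sln*, had 7, 3 and 2 reads in *Smyd1-KO* hearts 1, 2 and 3 and 4, 9 and 1 in WT hearts 1, 2 and 3. At those counts no difference in *Sln* was detectable. *Cacna2d2* and *Kcnh2*, neighbours in this order, did not differ beyond the spread between hearts.

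**Figure D2:**
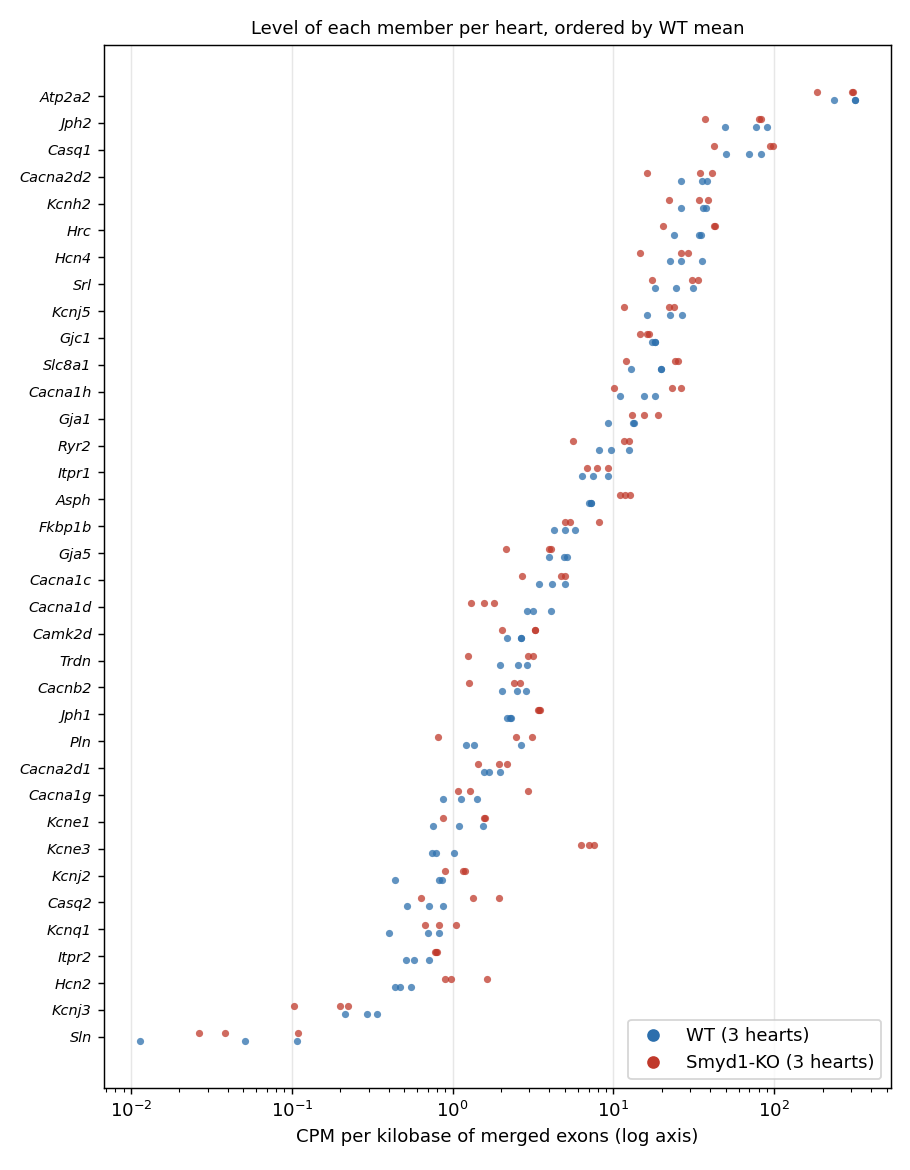
Level of each of the 36 members in CPM per kilobase of merged exons (log axis), with a point for each heart and the members ordered by their WT mean. *Atp2a2* lies highest in both genotypes and *Sln* lowest, and the genotypes lie clearly apart for *Kcne3*, at 6.96 in *Smyd1-KO* against 0.847 in WT.

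Between genotypes, 5 of the 35 tested members (14.3%) were called, against 4.28% of all tested genes. Of these 5, 4 were higher in *Smyd1-KO* (*Kcne3*, *Hcn2*, *Asph*, *Jph1*), where 2.86% of all genes were called in that direction, and *Cacna1d* was lower, where 1.42% were. DESeq2 called the same 5 members, against 8.99% of all genes in that tool. Without *Smyd1-KO* heart 1, these 5 and *Casq2* were called, against 6.28% of all genes in that fit. At an unadjusted *P* under 0.05 there were 7 of 35 members (20.0%), against 25.1% of all tested genes. The remaining 30 members did not pass, and they include the genes that define the adult cardiac calcium cycle (*Ryr2*, *Atp2a2*, *Cacna1c*, *Slc8a1*, *Casq2*, *Pln*). The median log2 fold change of the 35 members was 0.19 and their median absolute change 0.25, beside -0.00 and 0.25 over all tested genes. The genotypes did not overlap in 8 of 35 members (22.9%), a smaller share than the 31.3% of all tested genes. Of these 8, 6 were higher and 2 lower, where 15.9% and 15.5% of all tested genes were.

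Potassium channels held the largest difference. *Kcne3* (ENSMUSG00000035165, GRCm38 chr7:100176502-100184869) encodes a single-pass beta subunit that assembles with KCNQ1 and other voltage-gated potassium channels and is best known from epithelia, where it holds KCNQ1 open. It was at 11.15, 12.6 and 13.4 CPM across *Smyd1-KO* hearts 1, 2 and 3, against 1.39, 1.32 and 1.80 across WT hearts 1, 2 and 3. Every *Smyd1-KO* heart was far above every WT heart, and *Smyd1-KO* heart 1, low in most members, was not set apart here. *Kcne3* rose 8.21-fold, from 1.51 ± 0.259 to 12.4 ± 1.16 CPM (mean ± SD, n = 3), a log2 fold change of 3.04 (SE 0.188, 95% interval 2.60 to 3.48, adjusted *P* = 0.000869 by edgeR). The call held in all 6 fits that left out a single heart and with the cardiomyocyte covariate, where the log2 fold change was again 3.04 (adjusted *P* = 0.000546 by edgeR), and it was 3.11 without *Smyd1-KO* heart 1. Its expressed neighbours on chromosome 7, *Lipt2* at a gap of 15137 bp and *Pgm2l1* at 42525 bp, had log2 fold changes of 0.18 and 0.01 and were not called. By level per kilobase *Kcne3* went from 29th of the 36 members in WT to 17th in *Smyd1-KO*.

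Because *Kcne3* differed most, its annotated start regions are shown, as RefSeq gives them for GRCm38.p6 from 250 bases before to 50 bases after each start, 5′ to 3′. They lie at chr7:100176420-100176719 and chr7:100178433-100178732 on the plus strand, and capitals mark ACGTG, the core bases of the hypoxia response element and of a class of E-boxes.
*Kcne3* upstream start: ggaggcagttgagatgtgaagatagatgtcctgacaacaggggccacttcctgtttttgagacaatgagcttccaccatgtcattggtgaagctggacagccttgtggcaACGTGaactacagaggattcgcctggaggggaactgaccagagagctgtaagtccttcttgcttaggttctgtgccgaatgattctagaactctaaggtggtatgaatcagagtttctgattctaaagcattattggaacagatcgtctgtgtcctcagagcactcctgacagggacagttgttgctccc
*Kcne3* downstream start: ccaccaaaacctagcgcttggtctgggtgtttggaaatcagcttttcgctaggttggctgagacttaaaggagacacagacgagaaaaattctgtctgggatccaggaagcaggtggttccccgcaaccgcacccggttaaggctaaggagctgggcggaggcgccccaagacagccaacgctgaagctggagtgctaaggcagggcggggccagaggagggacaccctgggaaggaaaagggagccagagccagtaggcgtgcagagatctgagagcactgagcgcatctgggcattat
The first window holds 1 ACGTG, which begins 140 bases before the start, and the second holds none on either strand. Counted on both strands, ACGTG occurs in 19.6% of the 32851 promoters of that length in the same table. It occurs in 7 of the 30 promoters found there for 24 of the 36 members, those of *Cacna1c*, *Fkbp1b*, *Hrc*, *Kcne3*, *Kcnj2*, *Pln* and *Ryr2*. Of these 7 genes, *Kcne3* was the single called one. The GATA-type motif AGATAA occurs on either strand in 11.2% of all promoters and in 3 of the 30. A match is a description of letters and not a site, and promoters of *Asph* and *Jph1* were not analysed here.

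The other potassium channel members did not pass the test. *Kcnj2*, the inward rectifier that sets the resting potential, was at 4.85, 6.29 and 6.50 CPM across *Smyd1-KO* hearts against 2.38, 4.68 and 4.46 across WT hearts, which did not overlap (log2 fold change 0.61, 95% interval -0.05 to 1.27, adjusted *P* = 0.226 by edgeR). *Kcnq1*, the slow delayed rectifier pore and a partner of KCNE3, had a log2 fold change of 0.41 (-0.31 to 1.13), and *Kcne1*, its usual cardiac beta subunit, 0.25 (-0.53 to 1.03). For the G-protein-gated rectifiers that respond to the vagus, the change was -0.68 for *Kcnj3* (-1.47 to 0.12), a gene at about 1 CPM, and -0.18 for *Kcnj5* (-0.85 to 0.49). *Kcnh2* was at -0.08 (-0.60 to 0.44). For each of these 6 genes the interval still held a 1.5-fold change in at least 1 direction. The per-kilobase ratio of *Kcnj5* to *Kcnj3*, which form 1 channel together, was 113, 98.9 and 120 across *Smyd1-KO* hearts against 78.7, 76.5 and 75.9 across WT hearts, without overlap (log2 difference 0.52, exact permutation *P* = 0.1, adjusted 0.2). *Kcnj3* shares 1621 exonic bases with *Gm26794* on the opposite strand, so its low counts and this ratio are uncertain.

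*Kcne3* and *Kcne1* therefore stood in another proportion in the mutant. The ratio of their levels per kilobase was 7.15, 4.44 and 4.83 in *Smyd1-KO* hearts 1, 2 and 3 and 0.508, 0.674 and 1.34 in WT hearts 1, 2 and 3. *Kcne1* exceeded *Kcne3* in 2 of 3 WT hearts and in no *Smyd1-KO* heart. The difference of the log2 ratios was 2.79, with *P* = 0.1 by the exact two-sided permutation test, the smallest possible, and 0.2 after adjustment over the 10 ratios computed.

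The pacemaker channels, which carry the depolarising current of spontaneous activity, had 1 called member of 2. *Hcn2* (ENSMUSG00000020331, chr10:79716634-79736108), the lesser of the pair in WT hearts, was at 3.11, 2.86 and 5.26 CPM across *Smyd1-KO* hearts 1, 2 and 3, against 1.51, 1.76 and 1.40 across WT hearts 1, 2 and 3. The groups did not overlap, and *Smyd1-KO* heart 3 was well above the other *Smyd1-KO* hearts. *Hcn2* rose 2.40-fold, from 1.56 ± 0.188 to 3.74 ± 1.32 CPM (SD, n = 3), with a log2 fold change of 1.26 (SE 0.280, 95% interval 0.61 to 1.92, adjusted *P* = 0.0478 by edgeR). This call lies close to the threshold: of the fits without 1 heart it held only without *Smyd1-KO* heart 1 (over the 6 fits, adjusted *P* 0.0382 to 0.158 and log2 fold change 0.94 to 1.43), and it was lost without any of the other 5 hearts. With the cardiomyocyte covariate the log2 fold change was 1.32 (adjusted *P* = 0.0241), without *Smyd1-KO* heart 1 it was 1.38, and without *Smyd1-KO* heart 3 it was 0.94. *Smyd1-KO* heart 3, the highest in *Hcn2*, was also far above the others in the mesenchymal markers *Col1a1* and *Postn*, and their part in this result was not tested. Its upstream neighbour *Bsg*, 4665 bp away on the same strand, was also called higher, with a log2 fold change of 1.02 (SE 0.188, adjusted *P* = 0.0292 by edgeR). On the other side *Polrmt*, 15 bp away, was at -0.33 and not called.

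*Hcn4* marks the first heart field and later the conduction system, and it was not called. Its level was 89.5, 160 and 177 CPM in *Smyd1-KO* and 161, 216 and 137 CPM in WT, with a log2 fold change of -0.27 (95% interval -0.90 to 0.36, adjusted *P* = 0.575 by edgeR). The groups overlapped and *Smyd1-KO* heart 1 was the lowest. Within each heart the per-kilobase ratio of *Hcn2* to *Hcn4* was 0.0665, 0.0342 and 0.0569 in *Smyd1-KO* and 0.0179, 0.0156 and 0.0196 in WT, a difference of 1.52 on the log2 scale (exact permutation *P* = 0.1, adjusted 0.2). *Hcn4* thus stayed the more abundant gene by a wide margin in all 6 hearts.

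Among genes of SR release, *Asph* rose. It (ENSMUSG00000028207, chr4:9448069-9669344) encodes aspartate beta-hydroxylase and, from other promoters and splice forms of the same locus, junctin and junctate, which join calsequestrin to the ryanodine receptor and act in calcium entry, and counts per gene do not part these products. *Asph* was at 176, 190 and 204 CPM across *Smyd1-KO* hearts 1, 2 and 3, against 117, 116 and 113 across WT hearts 1, 2 and 3. The WT hearts lay close together and all 3 *Smyd1-KO* hearts were above them. The rise was 1.65-fold, from 115 ± 1.93 to 190 ± 14.1 CPM (SD, n = 3), with a log2 fold change of 0.72 (SE 0.0817, 95% interval 0.53 to 0.91, adjusted *P* = 0.00664 by edgeR). The call was lost without WT heart 2 (adjusted *P* 0.00375 to 0.0544 over the 6 fits), with the log2 fold change at 0.67 to 0.77 over the 6 fits (0.77 without *Smyd1-KO* heart 1). With the cardiomyocyte covariate it was 0.74 (adjusted *P* = 0.00154 by edgeR). *Asph* shares 2302 exonic bases with *Clvs1* on the opposite strand, where reads cannot be assigned without strand, but *Clvs1* itself averaged 0.992 ± 0.196 CPM with *Smyd1* lost and 0.990 ± 0.388 CPM otherwise (SD, n = 3).

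The release channels themselves did not pass the test. *Ryr2*, the cardiac ryanodine receptor, was at 161, 336 and 360 CPM across *Smyd1-KO* hearts against 277, 359 and 233 across WT hearts (log2 fold change -0.02, 95% interval -0.73 to 0.69), so the spread between hearts of one genotype exceeded the difference between genotypes. *Itpr1*, an inositol trisphosphate receptor found early in the heart, was at 0.06 (-0.32 to 0.44). *Itpr2*, the main isoform of adult cardiomyocytes, was at 11.9, 11.5 and 11.6 CPM across *Smyd1-KO* hearts against 8.56, 10.6 and 7.58 across WT hearts, which did not overlap (log2 fold change 0.39, 0.02 to 0.75, adjusted *P* = 0.179 by edgeR). *Fkbp1b*, which encodes the FKBP12.6 subunit of the ryanodine receptor, was at 0.29 (-0.26 to 0.83).

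The junctophilins hold the SR and the surface membrane at a fixed distance. *Jph1* (ENSMUSG00000042686, chr1:16964560-17097889), the form best known from skeletal muscle, was at 17.0, 17.5 and 17.2 CPM across *Smyd1-KO* hearts 1, 2 and 3, against 11.5, 11.4 and 10.9 across WT hearts 1, 2 and 3. Both groups were tight and well separated, and *Smyd1-KO* heart 1 was level with the other *Smyd1-KO* hearts. *Jph1* rose 1.53-fold, from 11.3 ± 0.356 to 17.2 ± 0.290 CPM (SD, n = 3), with a log2 fold change of 0.61 (SE 0.103, 95% interval 0.37 to 0.85, adjusted *P* = 0.0223 by edgeR). The log2 fold change stayed between 0.59 and 0.64 when each heart was left out in turn, while the adjusted *P* (0.0273 to 0.118) was under 0.05 only without *Smyd1-KO* heart 1, where the log2 fold change was 0.625, and was lost without any of the other 5 hearts. With the cardiomyocyte covariate it was 0.62 (adjusted *P* = 0.0114 by edgeR). *Jph2*, the cardiac form, was at 157, 342 and 350 CPM across *Smyd1-KO* hearts against 386, 326 and 209 across WT hearts (log2 fold change -0.12, 95% interval -0.90 to 0.67). *Jph2* thus followed the cardiomyocyte markers from heart to heart where *Jph1* did not, and the per-kilobase ratio of *Jph1* to *Jph2* overlapped between genotypes (exact permutation *P* = 0.3).

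Voltage-gated calcium channels held the called decrease. *Cacna1d* (ENSMUSG00000015968, chr14:30039939-30491455) encodes Cav1.3, the L-type pore that opens at more negative voltages and acts in pacemaker and atrial cells. It was at 16.3, 19.8 and 22.7 CPM across *Smyd1-KO* hearts 1, 2 and 3, against 36.7, 51.5 and 39.7 across WT hearts 1, 2 and 3. All *Smyd1-KO* hearts were below all WT hearts. *Cacna1d* fell from 42.7 ± 7.80 to 19.6 ± 3.19 CPM (SD, n = 3), 2.18-fold lower, with a log2 fold change of -1.12 (SE 0.170, 95% interval -1.52 to -0.72, adjusted *P* = 0.0170 by edgeR). The call was lost without *Smyd1-KO* heart 2, without WT heart 2 and without WT heart 3 (adjusted *P* 0.0188 to 0.0787 and log2 fold change -1.24 to -0.96 over the 6 fits). It held with the cardiomyocyte covariate, at -1.08 (adjusted *P* = 0.00714), and without *Smyd1-KO* heart 1, at -1.005. The opposite-strand gene *Chdh* shares 589 exonic bases with it and had a log2 fold change of -0.44 (adjusted *P* = 0.434).

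**Figure D3:**
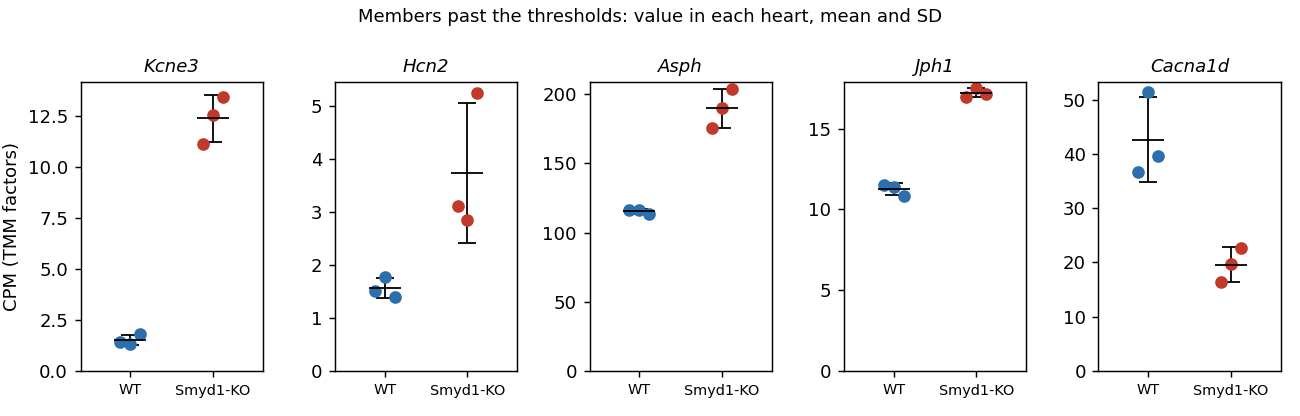
CPM of the 5 called members in each of the 6 hearts (y axis from 0 in each panel), with a point per heart and bars for mean and SD (n = 3). *Kcne3*, *Hcn2*, *Asph* and *Jph1* lie higher and *Cacna1d* lower in every *Smyd1-KO* heart than in any WT heart.

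*Cacna1c*, the Cav1.2 pore that carries the main calcium trigger of the working myocardium, was not called. It was at 57.5, 99.8 and 106 CPM across *Smyd1-KO* hearts against 87.7, 106 and 73.4 across WT hearts, and its log2 fold change was -0.02 (95% interval -0.58 to 0.54, adjusted *P* = 0.968 by edgeR). The ratio of *Cacna1d* to *Cacna1c* per kilobase was 0.476, 0.333 and 0.360 in *Smyd1-KO* and 0.703, 0.816 and 0.909 in WT, a log2 difference of -1.06 (exact permutation *P* = 0.1, adjusted 0.2). In WT hearts the L-type pores were thus near parity by this measure, which divides by 21191 merged exon bases for *Cacna1c* and 12621 for *Cacna1d*. In plain CPM the WT means were 89.0 for *Cacna1c* and 42.7 for *Cacna1d*. In each *Smyd1-KO* heart *Cacna1d* stood further below *Cacna1c* than in any WT heart.

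The T-type pores, which open near the resting potential and are prominent in the embryonic heart, did not pass the test. *Cacna1h* (Cav3.2) was at 99.0, 225 and 259 CPM across *Smyd1-KO* hearts against 151, 176 and 107 across WT hearts (log2 fold change 0.42, 95% interval -0.39 to 1.24, adjusted *P* = 0.487 by edgeR). *Cacna1g* (Cav3.1) was at 29.8, 13.1 and 11.0 CPM against 8.81, 14.4 and 11.4 CPM (0.63, -0.27 to 1.54). Its highest value came from *Smyd1-KO* heart 1, the heart lowest in cardiomyocyte markers, and the log2 fold change was 0.06 without that heart. The auxiliary subunits, which bring the pores to the membrane, were at -0.23 for *Cacnb2* (-0.86 to 0.39), 0.10 for *Cacna2d1* (-0.31 to 0.50) and -0.12 for *Cacna2d2* (-0.88 to 0.63).

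No gene of SR storage, uptake or calcium extrusion passed the test. *Atp2a2* was at 1126, 1844 and 1869 CPM across *Smyd1-KO* hearts against 1927, 1922 and 1428 across WT hearts, and its log2 fold change was -0.13 (95% interval -0.64 to 0.39, adjusted *P* = 0.762 by edgeR). *Slc8a1*, the sodium/calcium exchanger, was at 0.23 (-0.46 to 0.93) and *Camk2d*, the main cardiac calcium/calmodulin kinase, at 0.19 (-0.25 to 0.63). *Pln* was at 2.24, 8.59 and 6.82 CPM across *Smyd1-KO* hearts against 7.37, 3.77 and 3.32 across WT hearts, and its interval of -0.90 to 1.48 was the widest of the uncalled members. *Pln* also shares 1644 exonic bases with the annotated gene *Gm47644*, so its low counts are uncertain.

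*Casq2* was the storage gene with the largest estimate. It was at 1.73, 5.31 and 3.64 CPM across *Smyd1-KO* hearts 1, 2 and 3, against 2.37, 1.95 and 1.43 across WT hearts 1, 2 and 3, so *Smyd1-KO* hearts 2 and 3 lay above all WT hearts and *Smyd1-KO* heart 1 lay among them. The log2 fold change was 0.90 (95% interval -0.06 to 1.85, adjusted *P* = 0.223 by edgeR). Without *Smyd1-KO* heart 1 it was 1.23 (adjusted *P* = 0.0467; 0.0467 to 0.535 over the 6 fits without 1 heart), and with the cardiomyocyte covariate 1.01 (adjusted *P* = 0.0277). *Casq1* was at 82.2, 182 and 192 CPM across *Smyd1-KO* hearts against 161, 136 and 97.2 across WT hearts (0.21, -0.55 to 0.97). *Casq1* exceeded *Casq2* in every heart, by a per-kilobase ratio of 66.7, 48.2 and 73.9 in *Smyd1-KO* and 95.4, 97.9 and 95.6 in WT (log2 difference -0.64, exact permutation *P* = 0.1, adjusted 0.2). As ratios within a heart, the values of the WT hearts were close to one another although WT heart 3 was low in both genes.

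The other storage genes did not pass either. *Hrc*, a histidine-rich calcium-binding protein of the SR lumen, was at 0.19 (-0.49 to 0.86). *Srl*, which encodes sarcalumenin, was at 0.15 (-0.50 to 0.80). *Trdn*, the coupler triadin, was at -0.01 (-0.80 to 0.77). Each was lowest of all hearts in *Smyd1-KO* heart 1.

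Connexins form the gap junctions that join cardiomyocytes, and none of the 3 was called. *Gjc1* (connexin 45), a connexin of the early heart tube, was at 83.4, 81.0 and 72.9 CPM across *Smyd1-KO* hearts against 87.2, 91.4 and 90.6 across WT hearts. These values did not overlap, and its log2 fold change of -0.18 (95% interval -0.37 to -0.00, adjusted *P* = 0.197 by edgeR) leaves a 1.5-fold decrease outside its interval. *Gja5* (connexin 40), found in atria and trabeculae, was at 12.3, 22.7 and 23.5 CPM across *Smyd1-KO* hearts against 29.4, 28.5 and 22.7 across WT hearts (-0.46, -1.04 to 0.12). *Gja1* (connexin 43), the later ventricular form that is also made by many other cells, was at 194, 159 and 133 CPM against 136, 94.4 and 138 CPM (0.40, -0.03 to 0.84), and it was highest in *Smyd1-KO* heart 1. The per-kilobase ratios of *Gja5* to *Gja1*, *Pln* to *Atp2a2*, *Itpr1* to *Ryr2* and *Cacna1h* to *Cacna1g* overlapped between genotypes, with exact permutation *P* of 0.2, 0.6, 0.7 and 1.0.

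The intervals set what these hearts can say of the 30 uncalled members. Their log2 fold changes ran from -0.68 to 0.90, with adjusted *P* from 0.179 to 0.984 by edgeR. In 21 of 30 the 95% interval lay within a log2 fold change of 1 in either direction, so a 2-fold difference was outside it. In 2 of 30 it lay within 0.5, so smaller differences cannot be told from none in most of them. With the cardiomyocyte covariate, 7 of 35 members were called (20.0%, against 8.51% of all tested genes in that fit). These were the 5 above, *Casq2*, and *Cacna1h* at a log2 fold change of 0.54 (adjusted *P* = 0.0257 by edgeR). The covariate was measured in the same libraries and enters as a straight line on the log scale over 6 hearts, and whether that form is apt was not tested.

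**Figure D4:**
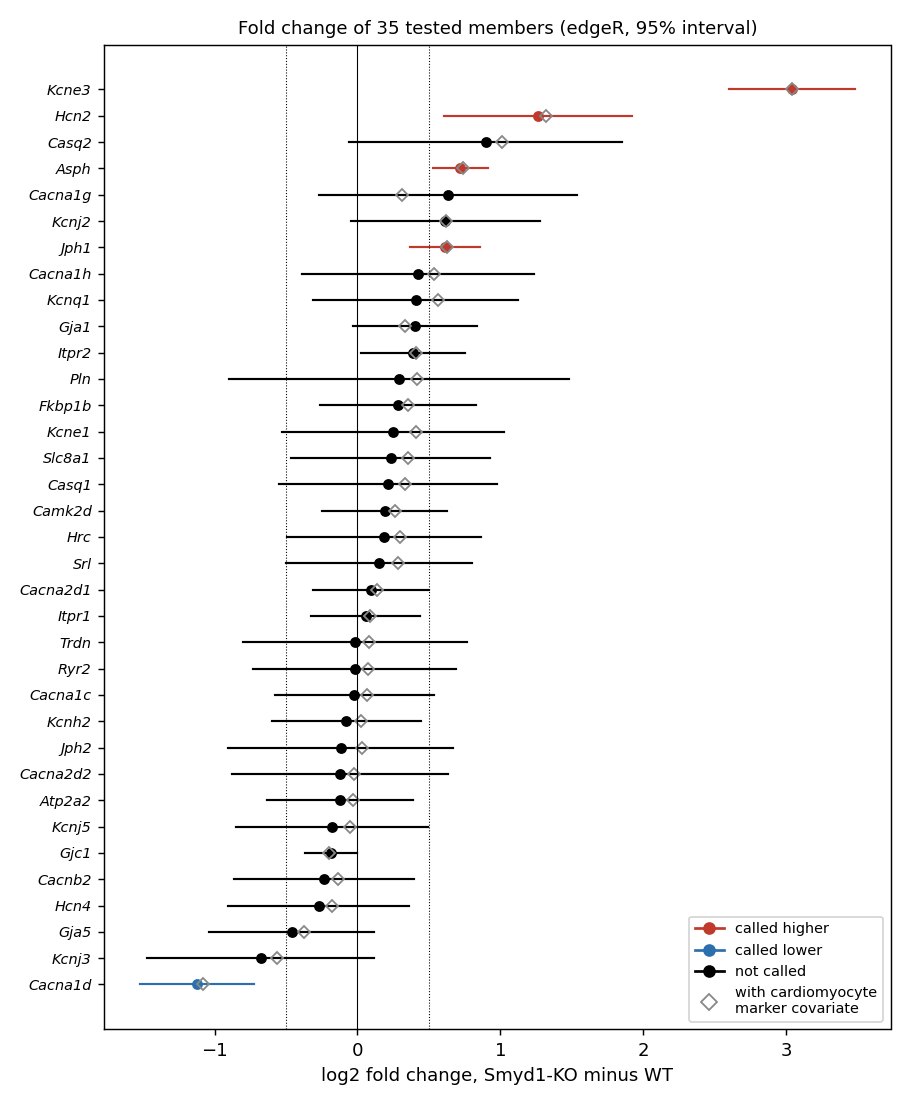
Log2 fold change (*Smyd1-KO* over WT, x axis) of the 35 tested members with 95% intervals, ordered by that fold change, with called members marked. Open diamonds give the log2 fold change from the fit with the cardiomyocyte covariate. The intervals of *Kcne3*, *Hcn2*, *Asph* and *Jph1* lie above 0 and that of *Cacna1d* below 0, and most others span 0.

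A wider list of 93 calcium, channel and connexin genes outside the 36 was read from the same fit. Of the 88 tested, 5 were called (5.68%, near the 4.28% of all tested genes), 4 higher and 1 lower, and their median log2 fold change was 0.02. Among 38 tested genes of calcium handling, 1 rose and 1 fell. *Itpr3*, the third inositol trisphosphate receptor, rose from WT values of 24.3, 31.2 and 27.9 CPM to 42.6, 44.7 and 53.2 CPM with *Smyd1* lost (log2 fold change 0.75, SE 0.128, adjusted *P* = 0.0232 by edgeR). *Letm1*, a cation exchanger protein of the inner mitochondrial membrane, fell from 84.1, 81.2 and 75.3 CPM to 50.02, 46.8 and 42.5 CPM (-0.79, SE 0.0879, adjusted *P* = 0.00664). All 3 inositol trisphosphate receptors were thus measured, with *Itpr3* called and *Itpr1* and *Itpr2* not.

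Among 41 tested genes of other channels, 3 rose and none fell. *Clcn3*, a chloride/proton exchanger of intracellular membranes, was at 136, 150 and 141 CPM across *Smyd1-KO* hearts against 74.8, 77.5 and 76.8 across WT hearts (log2 fold change 0.90, SE 0.0727, adjusted *P* = 0.00206 by edgeR). *Cacna1i*, the remaining T-type pore, was at 1.995, 1.86 and 3.05 CPM against 0.671, 0.992 and 0.571 CPM (1.63, SE 0.311, adjusted *P* = 0.0322). *Clcn3* stayed called in all 6 fits without 1 heart and *Letm1* in 5 of 6, while *Itpr3* and *Cacna1i* did in 1 of 6. None of the 9 other connexins and pannexins was called, with *Panx1* at -0.41 (adjusted *P* = 0.0761 by edgeR).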

How the data were processed

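The 36 genes and all gene lists were chosen with earlier results of these data known, so no test over a list was made. Whole-gene read counts, deposited by the authors as raw counts from poly(A) RNA-seq aligned with STAR to mm10 in their bcbio workflow, were used. The counting tool, annotation and strand setting are not given in the sources used here, and the authors' normalised table was not used. Genes passing filterByExpr (19372) were fitted with edgeR 4.0.16 (R 4.3.3; TMM, quasi-likelihood test, Benjamini-Hochberg), and hearts were grouped by their labels. The common biological coefficient of variation was 22.5%. CPM used TMM-scaled totals. Exon lengths and overlaps came from GENCODE M21 (GRCm38, the build named mm10). Log2 ratios of 10 of 12 listed gene pairs were tested by exact two-sided permutation over the 6 hearts, and the ratios with *Sln* were left out for low counts. Named genes were all 36, *Smyd1*, and from the wider list those called and the 3 with the smallest unadjusted *P* in each direction, some of which are not reported here. *Clvs1*, *Col1a1*, *Postn*, *Sox2*, *Irx3*, *Aldh1a2*, *Myh6*, *Myh7*, *Myog*, *Myf5* and the nearest expressed neighbours of the called genes were named after their values were seen. Alternatives were DESeq2 1.42.0, RLE size factors, other filters, a replicate block, leaving out each heart, and a cardiomyocyte marker covariate.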

Additional observations from a re-analysis of the deposited data

How the results depend on the processing

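All 35 tested members kept their direction and side of the threshold with DESeq2, RLE size factors, a minimum of 10 counts in every heart, no filter, and without 51 mitochondrial and haemoglobin genes. The replicate numbers did not pair the hearts (correlations of same-numbered deviations -0.216, -0.054 and -0.182, and -0.156 to 0.286 otherwise), and no heart correlated best with the heart of its own number. Under a block on that number, 59 genes in all (0.305%), 1 member (*Kcne3*) and 1 gene of the wider list were called, against 830, 5 and 5, and *Smyd1* was at -1.06. DESeq2 called 1748 genes and 12 of the wider list. Leaving out each heart gave 97 to 1256 genes, 1 to 6 members and 2 to 12 of the wider list, with *Smyd1* at -1.20 to -0.73. By heart, 1 member was called without WT heart 2, 2 without *Smyd1-KO* heart 2 or WT heart 3, 3 without *Smyd1-KO* heart 3 or WT heart 1, and 6 without *Smyd1-KO* heart 1. The cardiomyocyte covariate, added after the data had been seen, gave 1649, 7 and 9. *Smyd1* was called with DESeq2 (log2 fold change -1.001, adjusted *P* = 0.00551 by DESeq2) and with the covariate (-0.89, adjusted *P* = 0.00139 by edgeR).

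Signs turned in members whose main log2 fold changes ran from -0.23 (*Cacnb2*) to 0.29 (*Pln*). With the covariate the log2 fold changes were 0.071 for *Ryr2*, 0.08 for *Trdn*, 0.035 for *Jph2*, 0.068 for *Cacna1c* and 0.026 for *Kcnh2*. When each heart was left out in turn, ranges were -0.22 to 0.27 (*Ryr2*), -0.058 to 0.21 (*Itpr1*), -0.028 to 0.39 (*Srl*), -0.24 to 0.30 (*Trdn*), -0.33 to 0.17 (*Jph2*), -0.25 to 0.079 (*Atp2a2*), -0.084 to 0.74 (*Pln*), -0.18 to 0.21 (*Cacna1c*), -0.43 to 0.026 (*Cacnb2*), -0.037 to 0.25 (*Cacna2d1*), -0.39 to 0.18 (*Cacna2d2*), -0.36 to 0.083 (*Kcnj5*), -0.25 to 0.12 (*Kcnh2*), -0.12 to 0.36 (ratio *Itpr1*/*Ryr2*) and -0.73 to 0.69 (ratio *Cacna1h*/*Cacna1g*). The cause was not tested, and the fits without 1 heart have fewer samples. With 3 hearts a group, 9 of the 30 uncalled members had intervals reaching past a log2 fold change of 1.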
